A study of Macaca mulatta with 17 samples.

Results

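The comparison described here is that of uteri from female rhesus macaque fetuses exposed to bisphenol A (BPA) until term with uteri of vehicle-exposed fetuses of the same age. Arrays were chosen by their sample titles, late BPA or late control, which gave 7 of the 17 arrays of the series, 3 BPA and 4 control. The other 10 arrays came from fetuses at gestational day (GD) 100, 5 after BPA and 5 after vehicle from GD50 to GD100. The dams of the 3 BPA fetuses ate a fruit treat with deuterated BPA at 400 µg/kg each day from GD100 until vaginal delivery at about GD165, given as GD165 to GD168 in the labels. Dams of the 4 controls ate the same treat with the ethanol vehicle. Each array carried Cy3-labelled RNA of a single uterus, so that the fetus was the replicate, and the frozen piece ran from fundus to cervix. How much fundus, cervix or adjoining vagina each piece held is not given in the sources used here, and stillborn fetuses were left out of the array comparison. Fewer cells of a type and less RNA per cell cannot be told apart in RNA of whole tissue.

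BPA is a synthetic compound that binds estrogen receptors, although more weakly than estradiol. The uterus forms from the Müllerian ducts, in which HOX genes are expressed in overlapping domains along the axis from oviduct to vagina, and WNT and FGF ligands pass between mesenchyme and epithelium during patterning and gland formation. The lower tract gains a stratified squamous epithelium marked by p63 and basal keratins, and autonomic and sensory fibers that use peptides such as VIP and substance P enter the organ mainly from the cervical side.

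The array reads each transcript through a 60-base probe. The first 30 bases of the probes behind the main gene groups below are shown as the array design lists them, for a pair of neuropeptides and a neuronal protein, for FGF10, for the most posterior HOXA gene, for the HOXC gene with the largest difference, and for a WNT ligand of Müllerian duct formation.
SST: tctcttccctaatcctccaaatcctcagcg
VIP: tgctttggtcatatgagcttccttctgtga
STMN2: ggagggtctggcacgccccacaatagtaaa
FGF10: agaggacagaaaacacgaaggaaaaacacc
HOXA13: aacgggagagaaaactcttctgaggatcat
HOXC9: ctcttgcgatttgggagggttcagtgttga
WNT4: ccactcagttgttatctgtgtccatttttc
Each of these genes was read by a probe of its own sequence, and levels of different probes are not set against each other below.

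Signals were compared as log2 intensity scaled to the 75th percentile of each array. On the 7 GD165 arrays, 84.24% to 88.84% of probes were well above background, and the 75th percentile signal was 6430 to 7319 in BPA arrays and 5633 to 6644 in controls. The 7 arrays lay on 5 slides. Slide E held BPA fetuses 3 and 4 and control 1, while BPA 5 and controls 3, 5 and 6 lay on slides of their own within this age. These 3 arrays of slide E stood apart from the other 4 on the first principal component of the 7 arrays (25.9% of the variance), with scores of 36.5 and 39.4 for BPA 3 and 4 and 19.0 for control 1, against −12.8 for BPA 5 and −8.52, −40.7 and −32.8 for controls 3, 5 and 6. The treatment means differed by 36.8 on this component, with an SD of 29.3 in the 3 BPA arrays and 26.9 in the 4 controls, which did not pass the test (exact two-sided permutation p = 0.143, where 35 regroupings allow 0.0286 at the smallest). Of the variance over all probes, 19.2% lay between the treatments (p = 0.143 by an exact test over the same regroupings, one-sided for a larger share). Main results are therefore also given within slide E, as the mean of BPA 3 and 4 minus control 1, and outside it, as BPA 5 minus the mean of controls 3, 5 and 6. Neither of these values carries a test.

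No probe passed the threshold of a Benjamini-Hochberg adjusted p of 0.01 between BPA and control at GD165 (0% of 20217 probes, limma), and none passed 0.05. The smallest adjusted p was 0.118, shared by probes for SYNPR, FGF10 and IL19. At an unadjusted p under 0.05 there were 1740 probes (8.61%), of which 1325 were lower and 415 higher in BPA. This excess of lower probes depended on the scaling, since lower probes made up 76.1% of those at an unadjusted p under 0.05 with the 75th percentile, 68.0% with median scaling, 54.0% with quantile normalization, 18.7% with no scaling and 89.4% with normexp background correction. With 1 probe for each of 16432 named genes, 2.09% were higher and 6.6% lower at an unadjusted p under 0.05. The groups did not overlap, every BPA array above every control or below every control, for 2.09% of genes on the higher side and 5.25% on the lower side. By direction alone, 9208 of the 16432 genes were lower in BPA and 7224 higher. Counts within gene groups below are to be read against these shares and numbers. All differences below are BPA minus control on the log2 scale, with the standard error of the limma fit. Values are listed for BPA 3, 4 and 5 and for controls 1, 3, 5 and 6.

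Genes of nerve cells were lower in BPA uteri by the largest amounts among the genes named here, although none passed the threshold. Among the 12 largest differences on the lower side without overlap were those of SST, VIP, STMN2, PRPH and SYNPR, all of which neurons are known to express. These 12 were picked by their values on these same arrays, and the share of neuronal genes among all genes was not counted. Their number is thus no independent evidence about nerve genes. SST encodes somatostatin, an inhibitory neuropeptide. It measured 4.71, 6.43 and 5.88 in BPA uteri and 8.95, 9.55, 8.42 and 13.04 in controls. Every BPA array was below every control, and control 6 stood far above the other controls. The difference was −4.31 ± 1.02 (SE), a 19.8-fold lower mean, with an adjusted p of 0.354, and it was −3.37 within slide E, −4.45 outside it and −3.29 without control 6. VIP, the vasoactive intestinal peptide that relaxes smooth muscle, measured 4.28, 3.18 and 4.04 in BPA uteri and 5.89, 7.16, 8.03 and 11.12 in controls. The groups were again apart, with control 6 highest, and only 1 of the 3 BPA arrays was well above background. The difference of VIP was −4.21 ± 1.04 (adjusted p = 0.356), −2.16 within slide E and −4.72 outside it.

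STMN2, a regulator of microtubules in growing axons, measured 7.78, 7.62 and 7.56 in BPA uteri and 8.70, 11.06, 10.79 and 13.20 in controls. The 3 BPA arrays were nearly level, and the controls spread widely above them. Its difference was −3.29 ± 1.02 (adjusted p = 0.433), but within slide E it was −1.0 against −4.13 outside. PRPH, an intermediate filament protein of peripheral neurons, measured 9.17, 8.46 and 7.85 against 9.75, 11.47, 11.73 and 14.14. Control 1, on slide E, came closest to the BPA arrays for PRPH as it did for STMN2 and VIP. The difference of PRPH was −3.28 ± 1.17 (adjusted p = 0.487), −0.94 within slide E and −4.60 outside it. NEFM, the medium neurofilament chain, measured 6.62, 6.34 and 6.33 against 7.09, 8.52, 8.29 and 10.70. Its difference was −2.22 ± 0.76 (adjusted p = 0.468), and −1.54 without control 6. Control 1 was again the control nearest to the BPA arrays. TAC1, the precursor of substance P, measured 5.87, 6.22 and 6.63 against 7.31, 9.52, 7.10 and 7.92. TAC1 was highest in control 3 instead of control 6, and its difference was −1.72 ± 0.46 (adjusted p = 0.386).

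SYNPR, synaptoporin of synaptic vesicles, measured 2.59, 1.91 and 1.52 in BPA uteri and 4.42, 7.08, 6.88 and 8.11 in controls. No BPA array was well above background for this probe and all 4 controls were, so that its mean was at least 7.23-fold lower (adjusted p = 0.118). The measured means differed by −4.62 ± 0.73, by −2.17 within slide E and by −5.84 outside it. Without control 1 SYNPR passed the threshold (−5.35, adjusted p = 0.00651, limma). HMP19, a protein of neuronal vesicles, differed by −2.55 ± 0.84 (adjusted p = 0.461) with no overlap. SYNPR and HMP19 are not on the nerve list described below, and SYNPR was named for the size of its difference. PNOC and TLX2 were picked after their values were seen. PNOC, the precursor of the opioid-like peptide nociceptin, measured 9.69, 9.28 and 9.52 against 10.37, 10.97, 13.95 and 11.07, with control 5 as the highest array. TLX2, a homeobox factor of autonomic neurons, differed by −1.97 ± 0.75 by 1 probe and by −2.15 ± 0.76 by another.

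**Figure D1:**
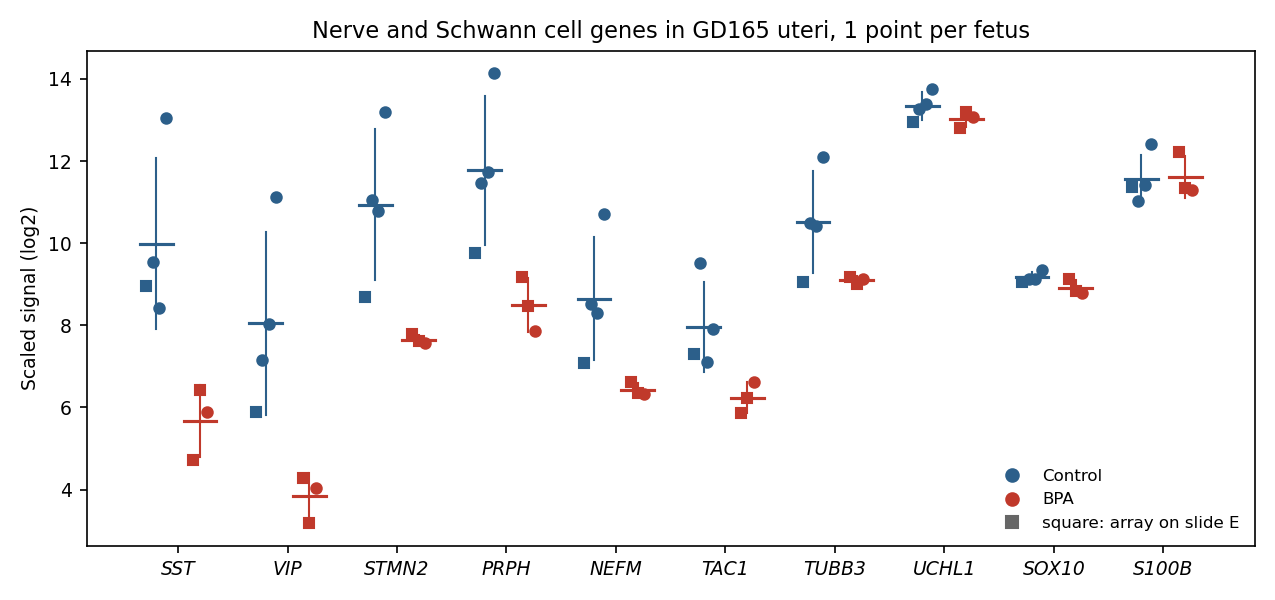
Level of nerve genes on each GD165 array, as log2 signal scaled to the 75th percentile (vertical axis), for the BPA and control groups; squares mark arrays of slide E, circles the other arrays, and bars the mean ± SD (3 BPA, 4 control). SST is at 4.71 to 6.43 in BPA uteri and at 8.42 to 13.04 in controls, and the control on slide E sits nearer to the BPA arrays than the other controls for STMN2 and PRPH.

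The list of nerve and Schwann cell genes had 27 members, all with a probe, and 21 of them were well above background on all 7 arrays. Of the 27, 4 were higher and 23 lower in BPA, none passed the threshold, and 11 were lower at an unadjusted p under 0.05. The groups did not overlap for 7 members, all lower. Among these, the neuronal RNA-binding protein ELAVL3 was not well above background on any GD165 array. The median difference was −0.45, against −0.03 over all named genes, −0.15 within slide E, −0.51 outside it and −0.24 without control 6. The list score, its mean log2 signal minus the mean over the 7 arrays, ran from −0.79 to −0.52 in BPA arrays and was −0.38 in control 1, 0.41 in control 3, 0.36 in control 5 and 1.49 in control 6. The list also held neuronal genes that were higher or near 0, such as the neuropeptide NPY (0.32 ± 0.39), the adhesion molecule NCAM1 (0.28 ± 0.15), the growth cone protein GAP43 (0.15 ± 0.20) and DBH (−0.07 ± 0.70), an enzyme of noradrenergic fibers. UCHL1, a ubiquitin hydrolase of neurons, differed by −0.33 ± 0.18 with overlap. TUBB3, a tubulin of neurons, differed by −1.41 ± 0.54 with overlap, by 0.03 within slide E and by −1.86 outside it. Genes of Schwann cells, the glia that ensheath peripheral axons, did not pass either. These were −0.26 ± 0.19 for the transcription factor SOX10 and 0.05 ± 0.35 for the calcium-binding protein S100B. The groups overlapped for both.

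Genes of squamous epithelium were mostly lower in BPA uteri as well. Of 50 listed, 49 had a probe, 41 were lower, 8 higher and none passed the threshold. There were 18 lower and 0 higher at an unadjusted p under 0.05, and the groups did not overlap for 9 lower members and 1 higher member. The 18 became 8 without BPA 3, 11 without control 6 and 23 without control 1. The higher member, CSTA, was not well above background on any GD165 array. Of the lower members without overlap, SPRR3 and DSG1 were each well above background on no BPA array and on only 1 control. The median difference was −0.57, −0.12 within slide E, −0.58 outside it, −0.44 without control 6 and −0.90 without control 1. Control 6 had a list score of 1.42, well above the −0.31, −0.07 and 0.24 of controls 1, 3 and 5, and the BPA arrays scored −0.52, −0.59 and −0.18. The summed level of the list was 16.78 to 17.01 in BPA arrays and 16.91 to 18.25 in controls on the log2 scale. Control 6 was thus highest in both the nerve and the squamous list, and the part that the makeup of the tissue piece had in either result was not tested.

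GJB5, a gap junction connexin of squamous cells, measured 5.92, 5.89 and 6.58 in BPA uteri and 6.61, 7.05, 6.97 and 7.39 in controls. The groups did not overlap, although BPA 5 came within 0.1 of control 1. The difference was −0.88 ± 0.19 (adjusted p = 0.275), −0.71 within slide E and −0.56 outside it. TFAP2C, an AP-2 transcription factor of surface epithelia, measured 4.20, 6.04 and 7.10 against 8.64, 8.45, 8.26 and 7.20. BPA 5 came within 0.1 of control 6, and the difference of −2.36 ± 0.71 (adjusted p = 0.413) was −3.52 within slide E and −0.87 outside it. Its relative TFAP2A differed by −0.50 ± 0.13 without overlap. S100A2, a calcium-binding protein of basal epithelial cells, measured 7.63, 9.70 and 8.15 against 10.16, 10.72, 9.80 and 12.90. Control 5 exceeded BPA 4 by 0.1 only, and the difference was −2.40 ± 0.91 (adjusted p = 0.509).

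Several markers that define the squamous layer overlapped between the groups, among them TP63, KRT5, KRT14 and KRT13. The keratins KRT4 (−0.90 ± 0.34) and KRT16 (−0.95 ± 0.31) were lower in BPA without overlap. TP63, the transcription factor of its basal cells, measured 9.12, 8.31 and 11.65 in BPA uteri and 10.23, 11.56, 11.81 and 12.89 in controls. BPA 5 lay within the control range. The difference was −1.93 ± 0.75 (adjusted p = 0.516). Among keratins, basal KRT5 differed by −1.12 ± 0.47 but by 0.15 within slide E, and basal KRT14 by −1.27 ± 0.54, which became −0.63 without control 6. Suprabasal KRT13 measured 15.59 in control 6 and 7.59 to 9.52 in the other controls. Its difference of −1.18 ± 1.33 turned to 0.55 without control 6.

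Genes of simple, single-layered epithelium were lower for 23 of 26 members, with a median difference of −0.36, and 5 were lower at an unadjusted p under 0.05. The median was −0.12 within slide E and −0.32 outside it, and without BPA 3 it was −0.22 with 1 such member. No member passed the threshold, and the groups did not overlap for KRT18 (−0.58 ± 0.22), the surface mucin MUC1 (−0.56 ± 0.24) and the integrin ITGB4 (−0.40 ± 0.18). Smooth muscle genes, which mark the myometrium, were lower for 16 of 19 members with a median of −0.21, which was −0.10 without BPA 3 and −0.36 without BPA 4. Markers of other tissue layers centered near 0, with medians of 0.06 for stroma, 0.04 for endothelium and 0.00 for leukocytes.

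**Figure D2:**
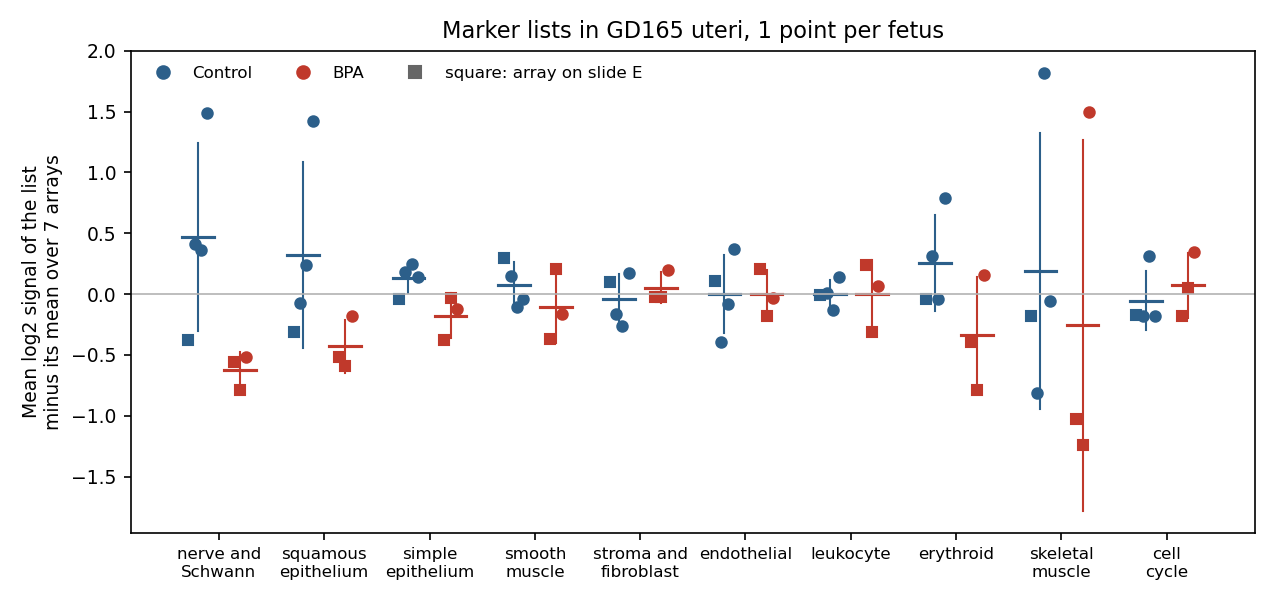
Score of marker gene lists (vertical axis, mean log2 signal of the list minus its mean over the 7 arrays) on each GD165 array; squares mark arrays of slide E, circles the other arrays, and bars the mean ± SD (3 BPA, 4 control). The nerve list runs from −0.79 to −0.52 in BPA arrays and from −0.38 to 1.49 in controls, and control 6 is highest for both the nerve and the squamous list.

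The most posterior HOX genes of the A and D clusters were lower in BPA uteri and several more anterior HOX genes higher, although none passed the threshold. HOXA13 is the most posterior gene of its cluster and is known from the lower reproductive tract. It measured 8.02, 10.10 and 6.77 in BPA uteri and 11.03, 11.39, 10.92 and 9.78 in controls. The groups overlapped, since BPA 4 lay above control 6. The difference was −2.48 ± 0.66, 5.58-fold lower (adjusted p = 0.386), −1.97 within slide E and −3.92 outside it. HOXD13, its counterpart in the D cluster, measured 6.27, 6.07 and 4.91 against 7.06, 6.36, 8.10 and 7.62. The groups did not overlap, though BPA 3 and control 3 differed by only 0.1. The difference of HOXD13 was −1.54 ± 0.44 (adjusted p = 0.407), −0.89 within slide E and −2.45 outside it. HOXB13 differed by −0.86 ± 0.50 with overlap and was highest in control 6, at 8.45.

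HOXC9, a gene of the middle of the C cluster, measured 9.13, 9.23 and 9.83 in BPA uteri and 7.54, 7.18, 8.17 and 8.88 in controls. Every BPA array was above every control. The difference of 1.45 ± 0.74 had a 95% interval of −0.13 to 3.04 and an adjusted p of 0.61, and it was 1.64 within slide E and 1.75 outside it. HOXC10, its posterior neighbor, measured 5.52, 5.76 and 6.74 against 4.60, 4.43, 4.78 and 5.50. Control 6 came within 0.1 of BPA 3. The difference was 1.18 ± 0.49 (adjusted p = 0.533), but −0.03 with normexp background correction. HOXC8 (0.75 ± 0.43) did not overlap either, and HOXC6 (0.92 ± 0.49) did. In the D cluster HOXD3 measured 10.40, 9.84 and 10.47 against 9.42, 8.84, 9.11 and 9.94, a difference of 0.91 ± 0.24 (adjusted p = 0.386) with overlap between BPA 4 and control 6. HOXD9 (0.38 ± 0.16), HOXA9 (0.41 ± 0.12, adjusted p = 0.407), HOXA10 (0.23 ± 0.08) and HOXB3 (0.28 ± 0.13) were higher without overlap, by smaller amounts. HOXA9, HOXA10 and HOXA11 mark the oviduct, the uterine body and the cervix in the Müllerian axis. HOXA11 differed by 0.12 ± 0.14, with an interval of −0.18 to 0.42.

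By cluster, 6 of 11 HOXA genes were higher in BPA with a median difference of 0.12, 4 of 9 HOXB genes with −0.02, 5 of 9 HOXC genes with 0.08 and 6 of 8 HOXD genes with 0.38. The HOXC differences above 0.5 were those of the neighbors HOXC6, HOXC8, HOXC9 and HOXC10. HOXC11 differed by −0.31 ± 0.19, and HOXC12 and HOXC13 were not well above background on any GD165 array.

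**Figure D3:**
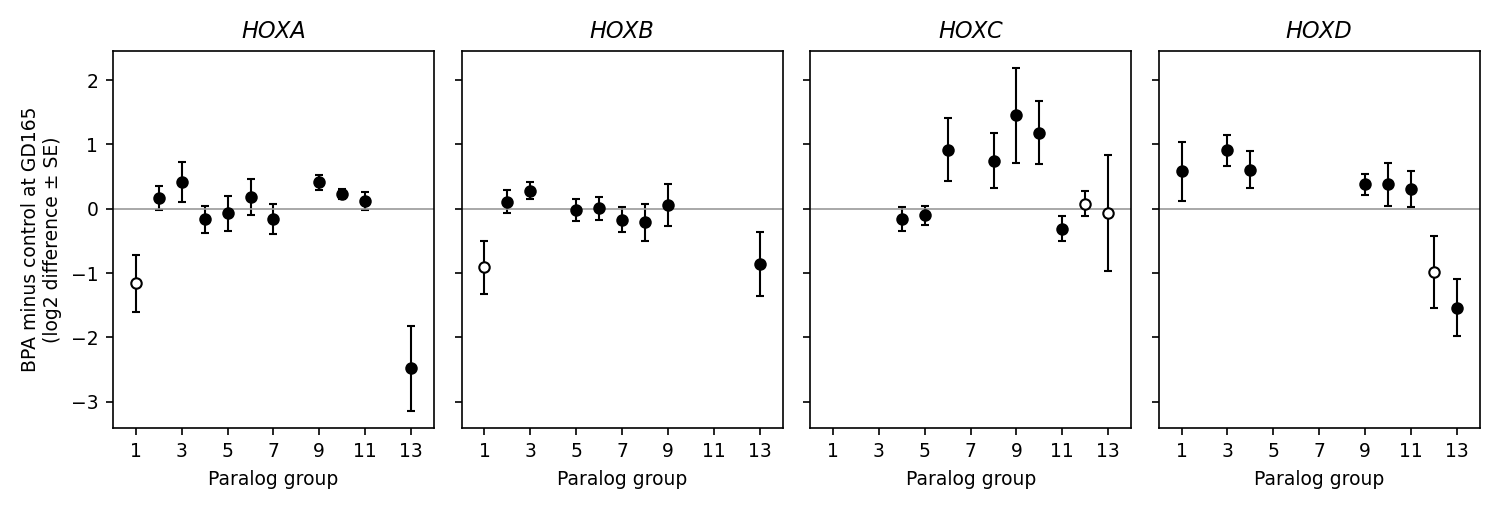
Difference between BPA and control (vertical axis, log2) for each HOX gene with a probe, ordered by number within the A, B, C and D clusters; bars are standard errors and open circles genes not well above background on any GD165 array. HOXA13 at −2.48 and HOXD13 at −1.54 are at the low end, and HOXC9 at 1.45 is at the high end.

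WNT ligands lay on both sides. Of 19, 7 were higher and 12 lower, with a median of −0.11, and none passed the threshold. WNT4, a ligand needed for Müllerian duct formation, measured 12.16, 11.80 and 12.17 in BPA uteri and 11.16, 11.25, 11.48 and 11.65 in controls. The groups did not overlap. The difference was 0.66 ± 0.21 (adjusted p = 0.455), 0.82 within slide E and 0.71 outside it. WNT2, a mesenchymal ligand, measured 9.27, 9.55 and 10.63 against 7.95, 8.89, 8.68 and 9.23. BPA 3 exceeded control 6 only slightly, and the difference was 1.13 ± 0.42 (adjusted p = 0.503). WNT5A, a ligand of the uterine mesenchyme, differed by 0.37 ± 0.15 (adjusted p = 0.528) without overlap. WNT11 lay the other way at −0.35 ± 0.09 (adjusted p = 0.386), also without overlap, and WNT6 differed by −0.55 ± 0.17 with overlap. Among receptors and transducers, FZD2 differed by 0.20 ± 0.13 and CTNNB1, which encodes β-catenin, by 0.21 ± 0.21. The medians were −0.01 for 17 Wnt receptors, −0.01 for 12 secreted antagonists and 0.11 for 14 target and feedback genes, of which 11 were higher.

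FGF10, a mesenchymal growth factor that acts on epithelial FGFR2, was lower in every BPA uterus than in any control. It measured 3.88, 4.28 and 4.38 in BPA uteri and 6.00, 6.67, 5.97 and 6.16 in controls. All arrays were well above background for this probe, and the highest BPA array was more than 1.5 log2 units below the lowest control. The difference was −2.02 ± 0.32, 4.06-fold lower, with a 95% interval of −2.71 to −1.34 (unadjusted p = 1.48e-05, adjusted p = 0.118, limma). It was −1.93 within slide E, −1.89 outside it and −2.12 to −1.86 with single GD165 arrays left out. With normexp background correction it was −0.88, and the differences of SYNPR (−1.54), CDH4 (−0.80) and PDE11A (0.65), also of low signal, were smaller in the same way. ETV4, a transcription factor induced by FGF signals, measured 7.4, 7.49 and 7.5 against 8.10, 8.39, 7.97 and 7.63. Its groups did not overlap either, with a difference of −0.56 ± 0.15 (adjusted p = 0.386). Of the 26 genes of the pathway, 19 were lower and 7 higher, with a median of −0.11, and no member other than FGF10 and ETV4 lacked overlap. FGF14, an intracellular member of the family, differed by −0.73 ± 0.35 with overlap. The receptors FGFR1 (−0.06 ± 0.11) and FGFR2 (−0.11 ± 0.16) and the related ligand FGF7 (−0.43 ± 0.23) overlapped between the groups. The feedback inhibitor SPRY2 differed by −0.00 ± 0.12.

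Among 29 regulators of the Müllerian duct and uterine glands, 15 were higher and 14 lower, with a median of 0.03. At an unadjusted p under 0.05, 4 were lower and 1 higher, against 6.6% and 2.09% of all genes. The 4 included ISL1 (−2.18 ± 0.84) and RUNX1 (−0.80 ± 0.37), both with overlap, and the higher gene was TBX2 (0.34 ± 0.16), also with overlap. LHX1, a homeobox factor of the forming duct, measured 8.37, 8.70 and 8.42 against 9.33, 10.26, 9.37 and 8.82. LHX1 differed by −0.95 ± 0.27 (adjusted p = 0.407) and SOX9, a transcription factor of glandular epithelium, by −0.61 ± 0.23 (adjusted p = 0.509), both without overlap. TCF21, a factor of urogenital mesenchyme, was higher without overlap by 1 probe (0.75 ± 0.25), and its second probe was not well above background on any GD165 array.

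Other genes on the lower side had various roles. CXCL14, a chemokine, measured 9.57, 10.99 and 10.34 in BPA uteri and 13.60, 12.77, 13.41 and 12.21 in controls. The groups were more than 1 log2 unit apart. The difference was −2.70 ± 0.53, 6.5-fold lower (adjusted p = 0.195), −3.32 within slide E and −2.46 outside it. CLIC6, an intracellular chloride channel protein, measured 5.43, 8.94 and 8.99 against 10.76, 10.57, 11.62 and 10.97. BPA 3 was far below the other BPA arrays, and the difference of −3.19 ± 0.98 (adjusted p = 0.419) was −2.01 without it. SLCO1A2, an organic anion transporter, differed by −3.21 ± 0.75 (adjusted p = 0.354) with 1 of 3 BPA arrays well above background, and its second probe, dim on most arrays, by −0.59 ± 0.39. The keratin KRT23 differed by −2.36 ± 0.58 (adjusted p = 0.359) and the cadherin CDH4 by −1.78 ± 0.41 (adjusted p = 0.33), both without overlap. The cytokine IL19 measured 1.44, 2.14 and 2.09 against 5.90, 3.20, 4.93 and 4.48. None of the BPA arrays and 3 of the controls were well above background, so that its mean was at least 1.82-fold lower (adjusted p = 0.121), and without control 3 this probe passed the threshold (−3.21, adjusted p = 0.00704). Its second probe differed by −3.12 ± 0.50 (adjusted p = 0.118), was also above background on no BPA array, and was not called without control 3. CTEN, an adhesion protein of the tensin family, measured 6.33, 6.43 and 6.44 against 7.33, 7.64, 7.39 and 7.43. Both groups were tight, and the difference was −1.05 ± 0.18 (adjusted p = 0.121). CYP3A4, an oxidizing enzyme of foreign compounds, was at least 1.6-fold lower, with no BPA array and 2 of 4 controls well above background.

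The 12 largest differences without overlap were smaller on the higher side than on the lower side. PDE11A, a phosphodiesterase of cyclic nucleotides, measured 6.60, 7.04 and 6.60 in BPA uteri and 5.06, 6.06, 5.63 and 4.04 in controls. All BPA arrays were above all controls. The difference was 1.55 ± 0.42, 2.92-fold higher (adjusted p = 0.386), 1.76 within slide E and 1.35 outside it. KLK3, a secreted protease under androgen control in the prostate, measured 12.11, 12.40 and 12.67 against 10.84, 9.32, 11.73 and 11.57, a difference of 1.53 ± 0.59 (adjusted p = 0.514). Its second probe differed by 1.05 ± 0.61 with overlap. IGHMBP2, a helicase, measured 9.42, 9.59 and 9.21 against 7.38, 7.95, 7.85 and 8.90 and differed by 1.39 ± 0.45 (adjusted p = 0.457). The controls of both genes spread more than the BPA arrays. CSTL1 (1.51 ± 0.61), GIPC2 (1.48 ± 0.56), ABHD1 (1.13 ± 0.46), IL26 (1.04 ± 0.34) and FAM26A (0.84 ± 0.30) were higher without overlap too, and adjusted p-values of these 5 ran from 0.465 to 0.528 (limma).

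**Figure D4:**
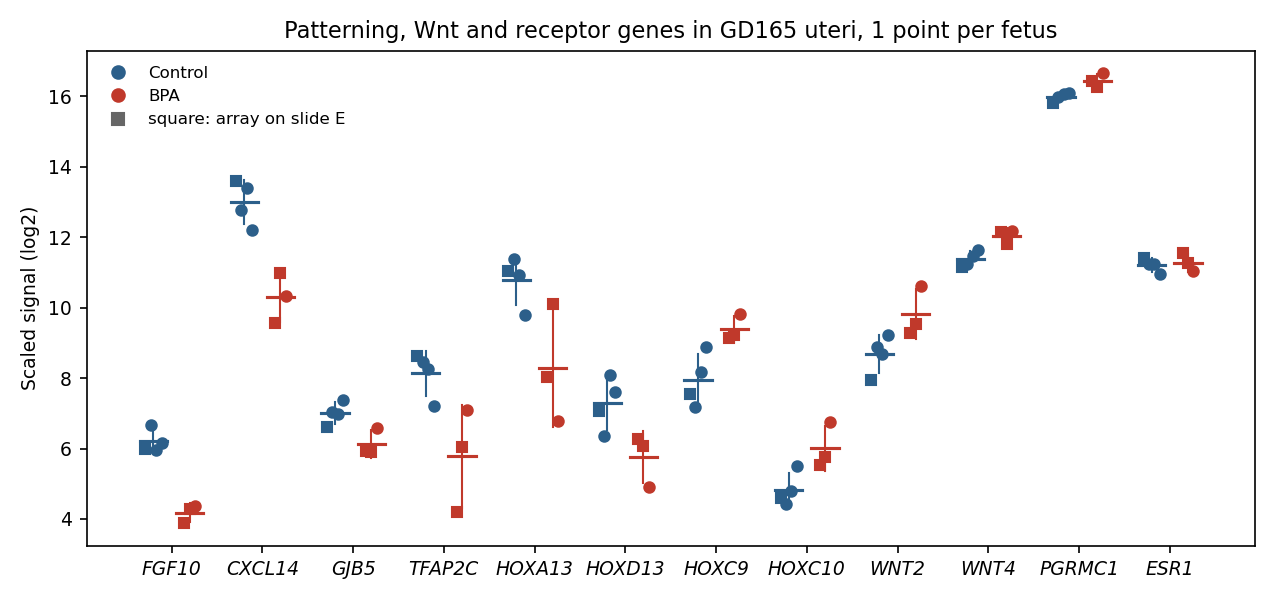
Level of FGF10, HOXA13, HOXC9, WNT4 and other named genes on each GD165 array, as log2 signal scaled to the 75th percentile (vertical axis), for the BPA and control groups; squares mark arrays of slide E, circles the other arrays, and bars the mean ± SD (3 BPA, 4 control). FGF10 is at 3.88 to 4.38 in BPA uteri and at 5.97 to 6.67 in controls, while HOXA13 overlaps between 9.78 and 10.10.

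Genes of steroid hormone action differed to both sides. ESR1, the estrogen receptor α, measured 11.54, 11.28 and 11.03 in BPA uteri and 11.42, 11.25, 11.24 and 10.95 in controls. The groups lay over each other, with a difference of 0.07 ± 0.18 and a 95% interval of −0.32 to 0.46. The probe of the progesterone receptor PGR was not well above background on any GD165 array, so that its level could not be compared. PGRMC1, a membrane-associated heme-binding protein, measured 16.43, 16.26 and 16.66 against 15.82, 15.98, 16.06 and 16.10. It was higher without overlap by 0.46 ± 0.11, 1.38-fold (adjusted p = 0.33), by 0.53 within slide E and by 0.61 outside it. The prolactin receptor PRLR differed by 0.82 ± 0.38 with overlap, and by −0.11 within slide E. MKI67, a marker of proliferating cells, differed by 0.42 ± 0.28 with overlap. The medians were 0.03 for 18 steroid receptors and coregulators, −0.08 for 23 genes known to respond to estrogen and 0.01 for 24 that respond to progesterone. At an unadjusted p under 0.05, 2 of the 18 receptors and coregulators (PGRMC1 and PRLR) and 4 of the 24 progesterone genes were higher, against 2.09% of all genes. On the lower side there were 0 of the 18 and 1 of the 24, against 6.6% of all genes. The lower gene was PRL, prolactin, not well above background on any GD165 array. The 4 higher progesterone genes were PGRMC1, PRLR, the growth factor BMP2 (0.44 ± 0.16) and HSD17B2 (1.30 ± 0.57), and none passed the threshold. HSD17B2, an enzyme that inactivates estradiol, was well above background on 1 array of each group. The study named PGRMC1 and PRLR as higher on these samples, so counting them is no independent evidence.

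The study itself names 40 genes for GD165 in 3 lists that share 3 genes. Of these 37 were measured, and GDE1, DOK6 and RNF186 were not analysed here. Of 17 measured genes in the list of the most changed, 9 were higher and 8 lower, and 15 did not overlap. Of 12 HOX, WNT and FZD genes, 11 were higher with a median of 0.70, and 7 did not overlap, all higher. Of 11 others, 10 were higher with a median of 0.28, and 4 did not overlap. The study chose the first 2 lists on these samples, so their counts are no independent evidence of a direction, which was not so for every gene of the third. No gene of the 3 lists passed the threshold in the limma fit (0%). The study had identified its differing probes by another test, an error-weighted analysis of variance, with the same correction and cutoff. It reported significantly different probes at GD165 and a separation by treatment in its principal components. Here the limma fit called 0 probes and the first component did not pass its test. With the scanner's error model alone, 4831 probes were called. The cause of the different outcomes was not tested. It also reports real-time RT-PCR for HOXC9, WNT2, WNT4, HOXA13 and SST. By RT-PCR, HOXC9, WNT2 and WNT4 were higher and HOXA13 and SST lower in BPA uteri, the directions found on the arrays here.

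**Figure D5:**
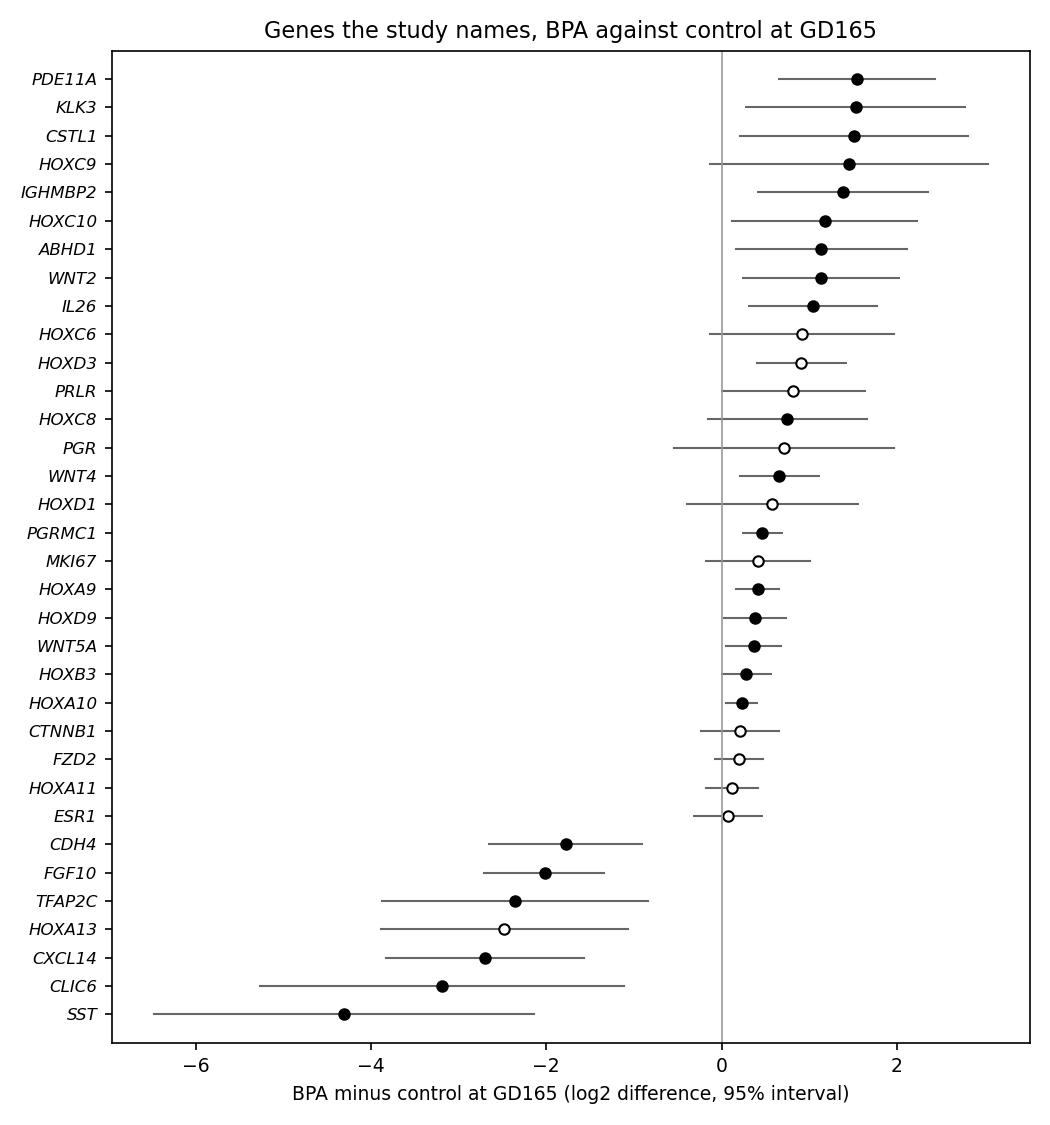
Difference between BPA and control uteri at GD165 (horizontal axis, log2) for genes named by the study; lines are 95% intervals and filled points genes whose groups did not overlap. Differences run from −4.31 for SST to 1.55 for PDE11A.

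At GD100 no probe passed either (smallest adjusted p 0.578, 767 probes at an unadjusted p under 0.05). The difference of the BPA effect between the ages, tested as an interaction, called 0 of 20217 probes (0%, limma), with a smallest adjusted p of 0.269 and 1584 probes at an unadjusted p under 0.05. The neural genes differed at GD100 by 0.93 ± 0.84 for SST, 1.37 ± 0.86 for VIP, 1.09 ± 0.84 for STMN2 and −0.17 ± 0.61 for SYNPR. The interactions were −5.24 ± 1.32 for SST (adjusted p = 0.456) and −5.58 ± 1.34 for VIP (adjusted p = 0.456), so that a difference between the ages was not shown. The median of the nerve list was 0.17 at GD100, and that of the squamous list 0.04. FGF10 differed by −0.45 ± 0.27 at GD100, with an interaction of −1.58 ± 0.42 (adjusted p = 0.482). HOXA13 differed by −0.42 ± 0.55 and HOXC9 by 0.79 ± 0.62. Among the smallest interaction p-values were those of CTEN (−1.33 ± 0.23) and COX7C, a subunit of mitochondrial cytochrome oxidase. COX7C differed by 0.65 ± 0.20 at GD165 and by −0.97 ± 0.16 at GD100 (interaction 1.62 ± 0.26, adjusted p = 0.269). Its second probe differed by 0.03 ± 0.20 at GD165.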

How the data were processed

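Rhesus macaque 1-color arrays were read with Agilent Feature Extraction 9.5 per the labels. The deposited intensity values are gProcessedSignal, corrected for background and not scaled between arrays by the authors. The deposited value table of the series holds the same signals, equal in 711467 of 711467 values compared. Control spots and outlier spots were left out, each array was taken as log2 signal minus the log2 of its 75th percentile, and the mean of the 17 percentiles (12.62) was added back. A linear model with 4 groups was fitted to all 17 arrays in limma 3.58.1 (R 4.3.3), so that the groups share 1 estimate of spread. The threshold was a Benjamini-Hochberg adjusted p of 0.01. The median SD between replicates was 0.22 in GD165 BPA arrays and 0.24 in controls, and the number of arrays limits the precision. Spread was not alike for all gene groups. The SD of the squamous list score was 0.77 in GD165 controls and 0.22 in GD165 BPA arrays. It was 0.03 in GD100 controls and 0.12 in GD100 BPA arrays. Gene names were taken from the array design, with 491 older symbols updated, for 18036 of 20217 probes, and 509 probes were named there from a similar human gene. Where a probe was dim on all arrays of a group, its fold is a bound, set by the weakest signal that counted as well above background there.

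Genes are named by a rule that takes the study's own genes, the 12 largest differences on each side with an unadjusted p under 0.05, no overlap and a mean signal of at least 50, up to 4 members of each list and those without overlap, and the 5 smallest interaction p-values on each side. List members that mark a cell type were named also where the rule did not take them. The members and lists were chosen with earlier results of these data known. Some genes that this rule takes are not reported here, though they count in their lists. The fit was tested on simulated data. Alternatives were other scalings, background correction, filters, error weights, blocks and left-out arrays. The values outside slide E were chosen after seeing the data.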

Additional observations from a re-analysis of the deposited data

Results flagged for a closer look

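Of 102 values tested (68 genes and 34 list scores), 6 had a control array at GD165 far from the other 3 by Dixon's criterion. Chance would give about 1 in 20 for independent values. These values share genes and arrays, and many of the genes were named by their values, so the number was not set against chance. ABHD1 was lowest in control 6, at 7.68 with the nearest control at 8.40. ELAVL3, a neuronal RNA-binding protein not well above background on any GD165 array, was lowest in control 1, at 1.82 against 3.15. The list score of secreted Wnt antagonists was lowest in control 6, at −0.22 against 0.06, and so was that of DNA methylation and Polycomb genes, at −0.11 against 0.00. The cell cycle score was highest in control 5, at 0.31 against −0.17. The score of urothelium, ovary and other neighboring tissues was highest in control 6, at 0.70 against −0.19.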

How the results depend on the processing

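The counts of called probes stayed at 0 for the BPA difference at GD165 and for the interaction under other scalings, background correction, filters, weights and blocks, with 1 exception. The error model alone, which takes the spread from each spot and not from replicate fetuses, called 4831 probes at GD165 and 4663 for the interaction. Leaving out single arrays gave 0 to 1 calls for either. SYNPR was called without control 1 (−5.35, adjusted p = 0.00651, limma), IL19 without control 3 (−3.21, adjusted p = 0.00704), PI3 without control 6 (−1.50, adjusted p = 0.00933), and COX7C for the interaction without BPA 4 (1.95, adjusted p = 0.000253). The 3 genes at GD165 had adjusted p-values of 0.118, 0.121 and 0.409 with all arrays. Replicate numbers 3 and 5 occur in both GD165 groups, with correlations of deviations of 0.0272 and 0.115, and no source says that they mark a shared animal or day. With a replicate block 0 probes were called (smallest adjusted p 0.308), with 1792 at an unadjusted p under 0.05.

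Probes at an unadjusted p under 0.05 numbered 1740, 3350 with normexp and 7852 with the error model alone. Of these, 1325 were lower, against 2994 with normexp, 4933 with the error model, 357 with no scaling and 825 without BPA 3. No scaling moved the median of all probes from −0.02 to 0.14. The first component difference of 36.8 ran from 27.0 to 54.3 and the treatment share of 19.2% from 18.4 to 25.5, none past 0.05, which no exact test with an array left out can reach. Among named genes, directions turned for ESR1 (−0.04 with slide as a fixed block, −0.06 to 0.19 without single arrays), HOXC10 (−0.03) and PGR (−0.01) with normexp, KRT13 (0.62 with the replicate block, −2.11 to 0.55 without single arrays) and S100B (−0.25 to 0.33 without single arrays). The cause was not tested. The median standard error of a difference was 0.19.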

Other observations

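Skeletal muscle genes varied between fetuses of both groups at GD165. The list score was 1.5 in BPA 5 and 1.82 in control 5, and between −1.24 and −0.06 on the other 5 arrays. The median difference of its 32 members was −0.32, −0.55 within slide E and 1.09 outside it, and none passed the threshold. Genes of red blood cells were lower for 21 of 24 members, with a median of −0.54, −0.21 within slide E and −0.03 outside it, and scores of −0.39, −0.79 and 0.16 in BPA arrays and −0.04, 0.31, −0.04 and 0.79 in controls. SLC4A1, the anion exchanger of red cells, differed by −1.78, and the fetal globin HBG1 by −1.19. Cell cycle genes were higher for 28 of 39 members with a median of 0.18, which was 0.03 without BPA 5 and 0.33 without BPA 3. Among these were the mitotic kinase BUB1 (0.46) and the kinesin KIF20A (0.44), while the replication helicase subunits MCM2 (−0.32) and MCM6 (−1.13) were lower, none past the threshold.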
